A study of Mus musculus with 6 samples.

Results

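Chemically induced cells of the mouse, labelled CiLC, were compared with the embryonic fibroblasts they were made from, labelled MEF, in 4 of the 6 RNA sequencing libraries of the series (2 CiLC and 2 MEF). All cells came from KM mice, and each library held 18.4 to 18.9 M estimated reads. The MEF were taken from embryos of 12.5 or 13.5 days and grown for 3 to 5 passages. The CiLC were such fibroblasts, at the same passages, to which small molecules were given from 24 h after seeding. The labels name neither the compounds nor their doses, and they do not give the length of treatment. LC, 2 libraries of cells prepared from testis at passages 0 to 1 and labelled as Leydig cells, are given beside some values for reference. Nothing in the labels tells if libraries of the same group are separate cultures or animals; p-values here thus cover the spread among these libraries alone, and that spread can be purely technical. Members were chosen by title, and genes were described by what their products do: transcription factors, receptors, secreted proteins, transporters and channels, and enzymes.

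Fibroblasts are the matrix-building cells of connective tissue, and Leydig cells lie between the testis tubules and make androgens. A cell's transcription factors set which genes it reads. Its receptors, channels and carriers set which signals and nutrients it takes in, its secreted proteins act on neighbouring cells, and its enzymes set which lipids, sugars and hormones it makes or breaks down. Leydig cells respond to pituitary hormone through cyclic AMP and depend on the nuclear receptor NR5A1 and the zinc finger factor GATA4 for steroid synthesis.

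The labels were first checked against their marker genes. Levels are counts scaled for library size (CPM, estimated reads of the gene in every 1 M of the library). Nr5a1 (NCBI gene 26423) was at 69.3 and 68.7 CPM in the CiLC libraries, 0.157 and 0.156 CPM in the MEF libraries, and 164 and 167 CPM in LC. Gata4 was at 72.2 and 71.9 CPM in CiLC, 3.83 and 3.96 CPM in MEF, and 189 and 191 CPM in LC. Star, which brings cholesterol into mitochondria for steroid synthesis, was at 58.4 and 57.6 CPM in CiLC against 5.08 and 5.47 CPM in MEF. These 3 markers stood between the fibroblasts and LC, with no overlap of libraries. Of 10 listed markers of Leydig and steroid cells 7 were tested, with Nr5a1, Gata4, Star and Hhip among them. The others, Cyp17a1, Hsd3b6 and Lhcgr, had too few reads across the libraries, LC included, to be tested. Of the 7, 6 were higher and none lower, against 26.1% and 25.5% of all genes tested. The list summed to 351 and 335 CPM in CiLC, 12 and 13.5 CPM in MEF and 1298 and 1273 CPM in LC. Hhip, a gene low in LC, made up 131 and 119 CPM of the CiLC sums. The Leydig hormone Insl3 did not pass the test, at 0.967 and 0.152 CPM in CiLC, 0 and 1.93 CPM in MEF and 6.03 and 7.06 CPM in LC. Hhip, a membrane protein that binds hedgehog ligands, was high in CiLC alone of the groups, at 131 and 119 CPM, with 0.629 and 0.104 CPM in MEF and 0.290 and 0.118 CPM in LC. Its log2 change from MEF was 8.39 with all libraries, 10.13 without MEF replicate 1 and 7.62 without MEF replicate 2. The contractile and pericyte markers fell, Cnn1 from 22.2 and 21.2 CPM to 0.967 and 0.609 CPM, and Rgs5 from 81.2 and 68.6 CPM to 1.02 and 1.27 CPM. In whole cultures such as these, fewer cells of a type and less RNA per cell cannot be told apart.

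Genes were called at an adjusted p under 0.05 in edgeR's quasi-likelihood test. Of 14581 genes tested, 3808 were higher in CiLC (26.1%) and 3721 were lower (25.5%). Description was then limited to the 11457 genes with a mean of 5 CPM or more in the higher group. At that level 29.0% of genes were higher and 28.2% lower, and 57.2% were called in either direction, so a call alone sets few genes apart. A change that was called and at least 2-fold was met by 9.17% of genes, with 533 higher (4.65%) and 518 lower (4.52%).

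**Figure D1:**
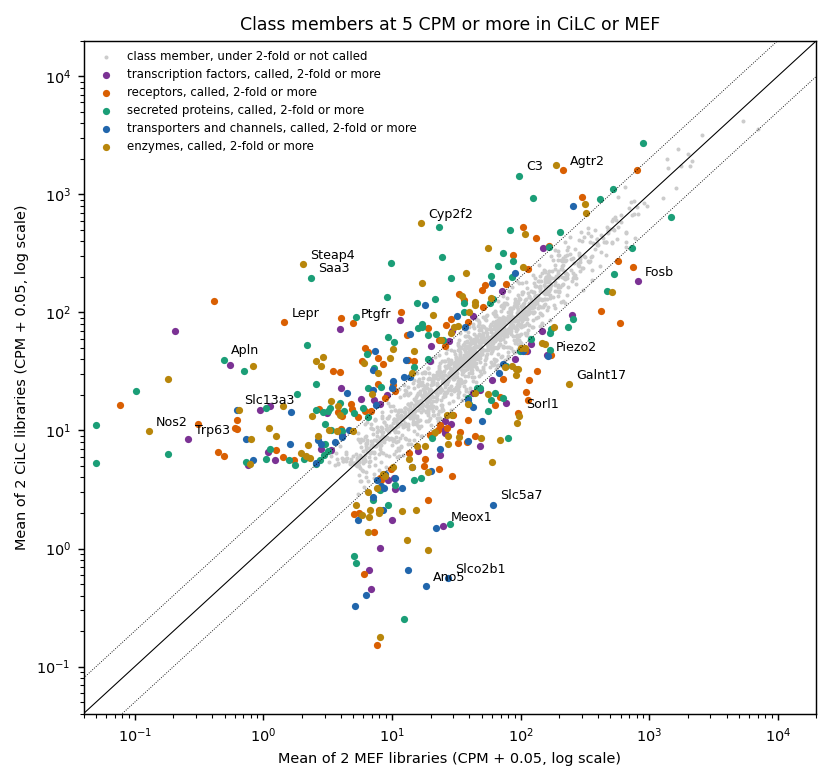
Each point is a gene of the 5 classes with a mean of 5 CPM or more in the higher group; the horizontal axis is its mean level in MEF and the vertical axis its mean level in CiLC, both in CPM + 0.05 on log scales. Dotted lines mark 2-fold. Coloured points are genes called and changed at least 2-fold, such as Steap4 and Cyp2f2 far above the diagonal and Slco2b1 and Ano5 far below it.

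The 5 classes held 3509 genes, of which 2654 were tested and 1877 reached the level. Secreted proteins had the largest share of change: 75 of 225 were at least 2-fold higher and 32 at least 2-fold lower, together 47.6%. Their median log2 fold change was 0.37 against 0.01 over all genes at the level. Receptors came next, with 57 of 287 higher and 41 lower by that measure (34.1%). Enzymes (50 higher and 46 lower of 597, 16.1%), transporters and channels (28 and 26 of 385, 14.0%) and transcription factors (25 and 26 of 385, 13.2%) lay nearer to the 9.17% of all genes. Genes in none of the classes changed this much in 6.74% of cases. Leaving out macrophage marker genes, which are described further on, gave 46.1% for secreted proteins and 33.6% for receptors.

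The fitted coefficient of variation between libraries was 3.16%, a low value. With 0.4 assumed in its place, no gene at the level was called at a change below 3.55-fold, and the largest change not called was 3.67-fold. Changes below 3.55-fold in the text lost their call in that setting. The counts of genes at least 2-fold higher and lower then became 41 and 10 for secreted proteins, 28 and 20 for receptors, 28 and 17 for enzymes, 10 and 13 for transporters and channels, and 12 and 10 for transcription factors.

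**Figure D2:**
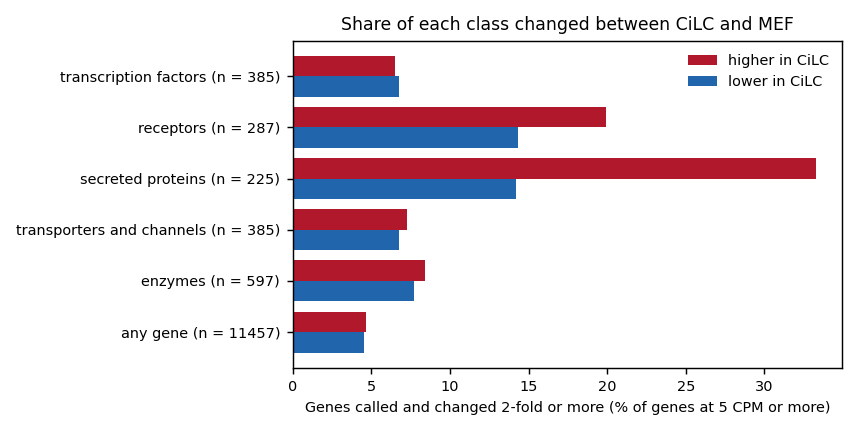
Bars give, for each class and for any gene at 5 CPM or more, the percentage called and at least 2-fold higher (red) or lower (blue) in CiLC. Secreted proteins reach 33.3% higher and 14.2% lower, against 4.65% and 4.52% for any gene.

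Among transcription factors, 25 of 385 were at least 2-fold higher. Trp63 (NCBI gene 22061), known as the p63 factor of stratified epithelia, was at 8.04 and 8.82 CPM in CiLC and at 0.0524 and 0.364 CPM in MEF. It rose by 5.29 ± 0.57 (SE) on the log2 scale (adjusted p = 5.62e-12), and both CiLC libraries lay above both MEF libraries. Genes were named for large changes, so a lack of overlap follows from that choice, here and below. The size of the Trp63 rise rested on few MEF reads: the log2 change was 4.50 without MEF replicate 1 and 7.16 without MEF replicate 2. LC held 0 and 0.118 CPM. Osr2, a zinc finger factor of limb, palate and kidney development, stood at 16.4 and 16 CPM against 1.21 and 0.937 CPM, a rise of 15.0-fold. Tfec, a relative of the MITF factor, was 7.18-fold higher. The counts of Zbtb8b, a zinc finger gene, were not whole and so include shared reads. It was at 89.7 and 83.6 CPM in CiLC, 10.9 and 12 CPM in MEF and 2351 and 2456 CPM in LC. Of the 117 named genes 33 had counts that were not whole, and not each is marked as such in the text. Saa3, Runx3, Npas4, Pgr, Adora3, Npr3, Galnt17 and Pgm5 are among them.

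Ahrr codes for the repressor of the aryl hydrocarbon receptor, a sensor of planar aromatic compounds. It was at 15.2 and 14.6 CPM in CiLC and 1.31 and 0.468 CPM in MEF, a change of 4.06 ± 0.29 (SE) on the log2 scale (adjusted p = 1.13e-13). The libraries of the groups did not overlap. With single libraries left out the log2 change ranged from 3.50 to 4.97, the largest without MEF replicate 1. Ahr, the receptor, was at 53.3 and 51.3 CPM against 20 and 20.2 CPM. Cyp1b1, an enzyme gene that the receptor is known to induce, was at 708 and 691 CPM against 343 and 308 CPM. Ahr and Cyp1b1 lie outside the rule for named genes and were chosen after their values were seen.

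Among nuclear receptors 3 of 26 at the level were at least 2-fold higher and 2 lower. Pgr, the progesterone receptor, was 6.19-fold higher in CiLC, at 6.56 and 6.44 CPM against 0.996 and 1.09 CPM. Nr4a2, an orphan receptor that stimuli switch on within minutes to hours, fell from 23.9 and 27.8 CPM to 8.70 and 10.3 CPM. Fosb and Npas4 are also switched on quickly by stimuli and were named by the rule. Fosb fell from 804 and 832 CPM to 178 and 191 CPM, and Npas4 fell 8.34-fold. Further genes of the same kind were picked after their values were seen and were not counted or tested as a set. Of these, Nr4a1 fell 2.62-fold, Egr3 2.25-fold, Fos 1.84-fold, Egr1 1.43-fold, Atf3 3.67-fold, Junb 1.28-fold and Jun 1.29-fold, and Fosl2 rose 1.83-fold.

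Of the transcription factors, 26 were at least 2-fold lower. Meox1, a homeobox factor of the somites, fell from 23.7 and 26.3 CPM to 1.78 and 1.22 CPM, by 4.06 ± 0.20 (SE) on the log2 scale (adjusted p = 1.2e-16). Runx3, a Runt factor of blood, cartilage and sensory neurons, fell from 47.5 and 49.2 CPM to 7.07 and 7.71 CPM. No forkhead (FOX) gene rose 2-fold, and 5 of 19 fell that far, led by Foxa1, an endodermal pioneer factor, from 7.34 and 6.19 CPM to 0.305 and 0.507 CPM, and Foxs1, from 6.61 and 6.56 CPM to 0.560 and 0.659 CPM. The median over the FOX family was -0.39 on the log2 scale. Homeobox genes outside the Hox clusters followed the same direction, with 5 of 45 at least 2-fold lower and 1 higher. That gene was Lhx8, at 5.60 and 5.63 CPM against 1.31 and 1.04 CPM. Epas1, the hypoxia factor HIF-2 alpha and a gene chosen after its value was seen, fell 4.55-fold.

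**Figure D3:**
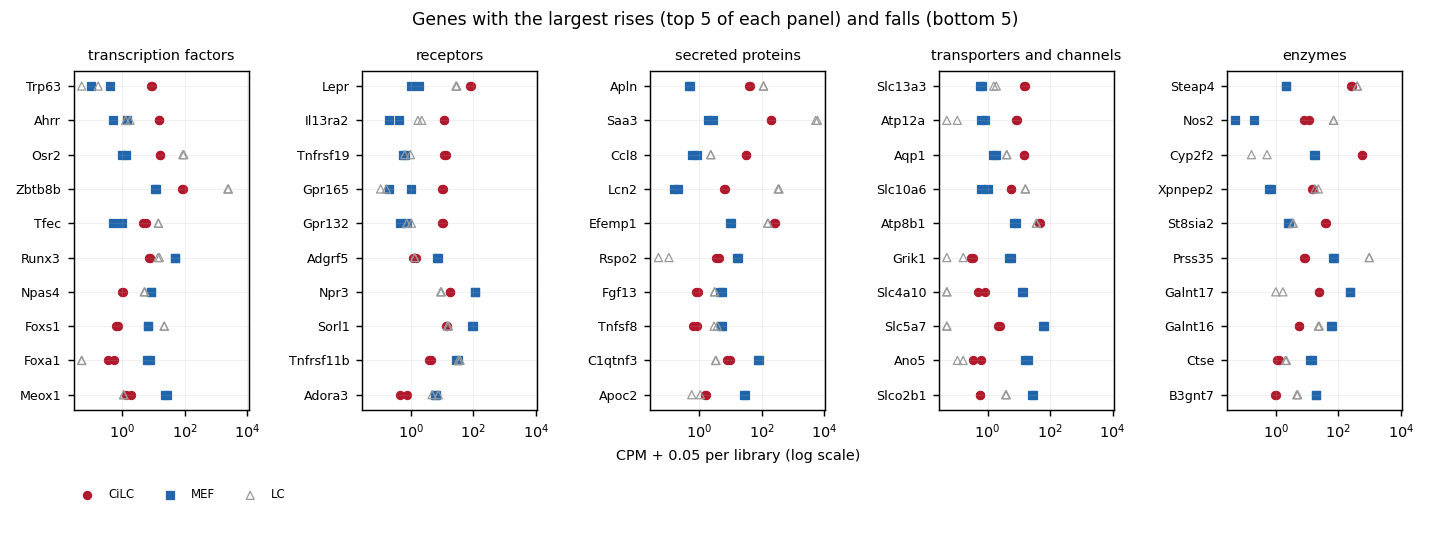
Points are single libraries, in CPM + 0.05 on a log axis, for the genes with the 5 largest rises and 5 largest falls in each class under the naming rule; CiLC are red circles, MEF blue squares and LC open triangles. CiLC and MEF points do not overlap for any gene shown, which follows from the naming rule, while LC points fall on either side of them.

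Genes of secreted signals changed in RNA level, and the proteins themselves were not measured. Among peptide hormones and adipokines 10 of 23 were at least 2-fold higher. Apln (NCBI gene 30878), the apelin peptide that acts on vessels and heart, was at 41.3 and 38.2 CPM in CiLC and 0.419 and 0.468 CPM in MEF. It rose by 6.46 ± 0.33 (SE) on the log2 scale (adjusted p = 3.48e-20) and was at 113 and 115 CPM in LC. In the opposite direction, C1qtnf3, an adipokine of the C1q and TNF family, fell from 83.4 and 76.3 CPM to 7.73 and 9.58 CPM.

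Acute-phase and lipid-carrying proteins formed the family with the largest share of change, 9 of 15 at least 2-fold higher and 3 lower, and its median log2 fold change was 2.21. Saa3, serum amyloid A3 of the acute phase, was at 193 and 201 CPM against 2.67 and 1.93 CPM, and Lcn2, a carrier of bacterial iron chelators, at 6.46 and 6.03 CPM against 0.157 and 0.104 CPM. Both were far higher still in LC, Saa3 at 6054 and 5355 CPM and Lcn2 at 358 and 335 CPM. Apod, a lipocalin chosen after its value was seen, went from 23.2 and 23.3 CPM to 529 and 536 CPM, yet was at 1.28 and 1.30 CPM in LC. Apoc2, the cofactor of lipoprotein lipase, fell from 27.5 and 29.3 CPM to 1.48 and 1.62 CPM.

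Complement genes, whose products tag microbes and debris, were higher in 12 of 16 cases and lower in 3. Over all genes at the level 29.0% were higher and 28.2% lower. At least 2-fold higher were 8 of the 16 and lower 3, against 4.65% and 4.52% of all genes at the level. C3, the central component, was at 1458 and 1409.6 CPM in CiLC and at 91.8 and 104 CPM in MEF, 14.7-fold apart with no overlap. It reached 11493 and 12348 CPM in LC. The proteases of the classical pathway, C1s1 and C1ra, rose 7.45-fold and 4.34-fold, and their inhibitor Serping1 rose 3.70-fold; all were chosen after their values were seen. The recognition subunit C1qc, made mainly by macrophages, moved the other way, from 536 and 538 CPM to 202 and 217 CPM. C1qa and C1qb fell 2.10-fold and 3.15-fold.

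Chemokines, which draw white blood cells, rose in 13 of 19 cases and fell in the other 6, against 29.0% and 28.2% of all genes at the level. At least 2-fold higher were 11 and lower 2, against 4.65% and 4.52% of all genes. Ccl8, an attractant of monocytes and T cells, was at 31.9 and 32.0 CPM against 0.524 and 0.781 CPM, and Cxcl5, a neutrophil attractant chosen after its value was seen, was at 52.1 and 54.8 CPM against 2.31 and 1.93 CPM. Cx3cl1, the ligand of the macrophage receptor CX3CR1, fell from 60.4 and 66.0 CPM to 20.6 and 21.1 CPM. Cytokines of the interleukin and TNF families did not follow the chemokines: 1 of 20 was at least 2-fold higher and 6 were lower. The share higher, 5.00%, was near that of all genes, and the share lower was 30.0%. The riser was Tnfsf11, the osteoclast factor RANKL, at 15.0 and 14.9 CPM against 2.88 and 2.13 CPM. Its decoy receptor Tnfrsf11b, osteoprotegerin, fell from 31.6 and 27.2 CPM to 4.38 and 3.75 CPM, a change of -2.85 ± 0.14 (SE) on the log2 scale (adjusted p = 1.9e-15). Among the cytokines that fell was Tnfsf8, the CD30 ligand of immune cells, 7.21-fold.

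Genes of growth factor and Wnt signals changed in both directions. Efemp1, a secreted fibulin that binds the EGF receptor, was at 267 and 253 CPM in CiLC and 10.2 and 9.37 CPM in MEF, a rise of 26.6-fold. Kitl, the stem cell factor that binds KIT, rose from 23.8 and 19.6 CPM to 128 and 130.3 CPM and was at 377 and 392 CPM in LC; it was chosen after its value was seen. Among Wnt and hedgehog ligands and Wnt modulators, 7 of 18 were at least 2-fold higher and 6 lower. Sfrp2, a secreted Wnt binder, went from 22.9 and 26.0 CPM to 299.7 and 288 CPM. Rspo2, an amplifier of Wnt signals, fell from 17.9 and 15.8 CPM to 4.33 and 3.50 CPM. The BMP antagonist Chrdl1 rose 15.4-fold, whereas Ltbp1, which holds TGF-beta in the matrix, fell 2.92-fold.

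**Figure D4:**
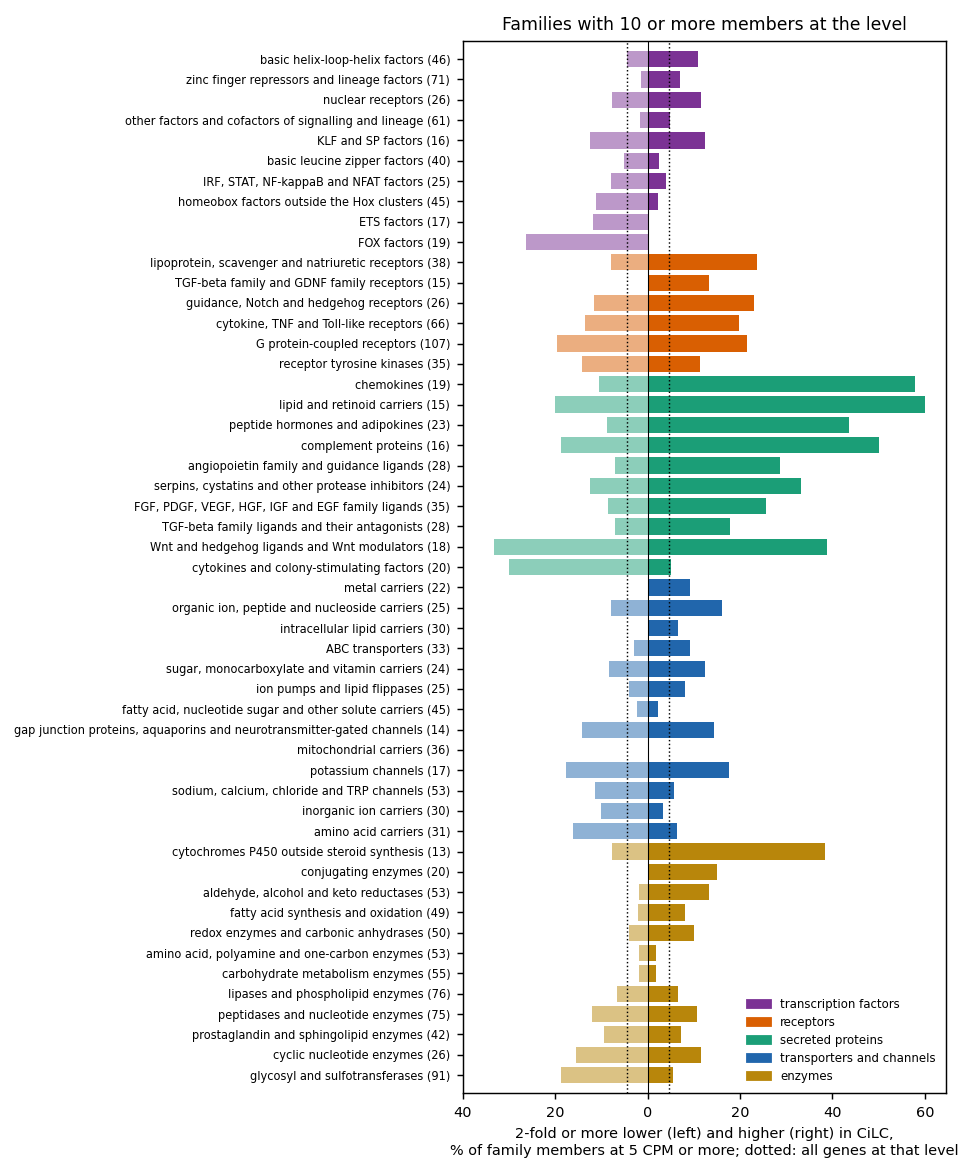
Bars show, for each family with 10 or more members at 5 CPM or more (number in brackets), the percentage at least 2-fold higher in CiLC to the right and lower to the left, with dotted lines at the 4.65% and 4.52% of all genes at that level. Lipid and retinoid carriers reach 60% higher, FOX factors have bars only to the left (26.3%), and mitochondrial carriers have none.

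Receptors for hormones and cytokines moved in both directions, and the class had a median log2 fold change of 0.06. Lepr (NCBI gene 16847), the receptor of the fat hormone leptin, was at 86.0 and 78.8 CPM in CiLC and 1.83 and 0.989 CPM in MEF. It rose by 5.86 ± 0.22 (SE) on the log2 scale (adjusted p = 4.78e-21), with part of its reads shared with other genes. Il13ra2, the decoy receptor of interleukin 13, was at 11.3 CPM in both CiLC libraries and at 0.367 and 0.156 CPM in MEF, a log2 change of 5.40. With single libraries left out its change ranged from 4.92 to 6.12, the largest without MEF replicate 1. Tnfrsf19, a TNF receptor family member of embryonic tissues, rose 21.1-fold.

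G protein-coupled receptors split almost evenly, 23 of 107 at least 2-fold higher and 21 lower. Gpr132, a receptor of oxidised fatty acids and lactate on white blood cells, was at 9.92 and 10.6 CPM against 0.734 and 0.416 CPM. The orphan receptor Gpr165 was at 9.87 and 11 CPM against 0.157 and 0.937 CPM, a log2 change of 4.23 that became 3.47 without MEF replicate 1 and 5.99 without MEF replicate 2. Adora3, the A3 adenosine receptor, fell from 5.77 and 6.25 CPM to 0.407 and 0.710 CPM, and Adgrf5, an adhesion receptor, fell 5.42-fold.

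Receptors of prostaglandins and thromboxane, lipid messengers made by cyclooxygenases, were picked after their values were seen and were not tested as a set. Ptgfr was at 82.0 and 79.5 CPM against 5.24 and 4.63 CPM, Ptger3 rose 5.66-fold, Ptgir 3.19-fold, Ptger2 2.57-fold and Ptger4 1.29-fold. Tbxa2r, the thromboxane receptor, fell 2.24-fold and Ptger1 fell 1.22-fold. Of the cyclooxygenases, Ptgs1 rose 2.43-fold and Ptgs2 fell 2.22-fold. Hpgd, which inactivates prostaglandins and was named by the rule, fell from 38.4 and 39.6 CPM to 16.2 and 17.0 CPM.

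Angiotensin receptors and the peptidases that cut angiotensins, peptides that control blood pressure, were likewise picked after their values were seen and were not tested as a set. Agtr2, the type 2 receptor, was at 1629.9 and 1554 CPM in CiLC and 226 and 199 CPM in MEF, and at 0.058 and 0.177 CPM in LC. Agtr1a rose 3.14-fold. Of the peptidases, Ace rose 9.98-fold, Mme 10.2-fold, from 18.1 and 16.2 CPM to 177 and 174 CPM, and Enpep 2.91-fold. CiLC and MEF libraries did not overlap for any of these 5 genes. Anpep, another such peptidase, fell 1.11-fold, from 374 and 391 CPM to 342 and 348 CPM, also without overlap.

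Related growth factor receptors moved in opposite directions. Pdgfra rose from 313 and 292 CPM to 963 and 924 CPM while Pdgfrb fell from 741 and 748 CPM to 249 and 240.3 CPM; both bind platelet-derived growth factors and both were chosen after their values were seen. Among neurotrophin receptors, Ntrk2 rose 3.80-fold and Ntrk3 fell 4.88-fold. Among guidance, Notch and hedgehog receptors, Unc5d, a netrin receptor, rose 16.5-fold. Notch3, a receptor of vessel-wall cells, fell from 111 and 121 CPM to 26.9 and 26.5 CPM. Besides Hhip, the hedgehog receptor Ptch1 rose 3.90-fold, the co-receptors Cdon and Boc rose 3.2-fold and 1.52-fold, and the signal transducer Smo rose 1.2-fold, all chosen after their values were seen.

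Clearance and sorting receptors fell in several cases. Sorl1, a sorting receptor of the lipoprotein receptor family, went from 93.3 and 99.4 CPM to 14.8 and 13.3 CPM. Npr3, which clears natriuretic peptides, went from 114 and 115 CPM to 18.4 and 17.4 CPM. Sorcs1, a relative of Sorl1, rose from 3.62 and 3.28 CPM to 31.3 and 31.8 CPM, so the direction differed within the family, of which 9 of 38 members were at least 2-fold higher and 3 lower.

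Transporters of organic acids, water and lipids were among the rises. Slc13a3 (NCBI gene 114644), a sodium-coupled carrier of dicarboxylates, was at 14.7 and 15.3 CPM in CiLC and 0.524 and 0.625 CPM in MEF. It rose by 4.69 ± 0.29 (SE) on the log2 scale (adjusted p = 1e-15). Aqp1, a water channel, was at 14.7 and 14.2 CPM against 1.78 and 1.41 CPM. Atp12a, a proton pump that takes up potassium, rose 12.2-fold, and Slc10a6, a carrier of sulfated steroids, rose 7.08-fold. Slc16a1, the lactate carrier MCT1, rose from 17.4 and 18.8 CPM to 118 and 112 CPM.

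Other carriers and channels fell. Slco2b1, an organic anion carrier that also takes up sulfated steroids, fell from 26.9 and 27.4 CPM to 0.509 and 0.507 CPM, a change of -5.72 ± 0.29 (SE) on the log2 scale (adjusted p = 1.55e-18). Ano5, an anoctamin of muscle and bone membranes, fell from 20.3 and 16.3 CPM to 0.560 and 0.304 CPM. Genes known from neurons moved in either direction. Slc5a7, the choline carrier of cholinergic neurons, fell from 63.2 and 58.6 CPM to 2.44 and 2.18 CPM, Slc4a10, a bicarbonate carrier, fell 21.6-fold, Grik1, a kainate receptor subunit, fell 17.7-fold, and the glutamate carrier Slc1a6 fell 15.2-fold. Slc1a3, another glutamate carrier, rose 4.72-fold, and Slc12a5, the potassium and chloride carrier KCC2 of neurons, rose 2.27-fold, from 10.1 and 9.99 CPM to 22.3 and 23.1 CPM.

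Mitochondrial carriers changed little. None of the 36 at the level changed 2-fold in either direction, against 9.17% of all genes. At any size 9 were higher and 4 lower. Among metal carriers 14 of 22 were higher and 4 lower, against 29.0% and 28.2% of all genes at the level. Of the 22, 2 were at least 2-fold higher and none that far lower, 9.09% and so near the share of all genes. The larger of them, Slc11a1, a macrophage transporter of iron and manganese that is also in the macrophage list, was at 38.9 and 39.5 CPM against 12.8 and 13.0 CPM. Slc40a1, the iron exporter, rose 2.20-fold, and Tfrc, the transferrin receptor that brings iron in, rose 3.48-fold; both were chosen after their values were seen.

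Among enzymes, Steap4 had the largest fitted rise of those named. Steap4 (NCBI gene 117167), a membrane reductase of iron and copper, was at 263 and 247 CPM in CiLC, 1.99 and 1.98 CPM in MEF, and 402 and 399 CPM in LC. It rose by 7.0 ± 0.16 (SE) on the log2 scale (adjusted p = 1.83e-24), and its relatives Steap1 and Steap2, chosen after their values were seen, rose 7.39-fold and 2.64-fold. Cytochromes P450 outside steroid synthesis were at least 2-fold higher in 5 of 13 cases and lower in 1, Cyp4a12b, which fell 3.93-fold and shares reads with other genes. Cyp2f2, a P450 known from the airway club cell, was at 559 and 579 CPM in CiLC, 16.4 and 17.4 CPM in MEF, and 0.116 and 0.471 CPM in LC. It thus stood above both the fibroblasts and the testis cells. Nos2, the inducible nitric oxide synthase, had 0 and 3 reads in MEF against 11.6 and 8.16 CPM in CiLC, a ratio of 126 with a 95% exact binomial interval of 42.7 to 613 that covers counting error only. All of its MEF reads were in replicate 2. The fitted log2 change of 6.86 ranged from 5.92 to 10.51 with single libraries left out, the smallest without MEF replicate 1.

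Some genes of vitamin A metabolism were picked after their values were seen and were not tested as a set. Aldh1a1 and Aldh1a2, which make retinoic acid, rose 6.21-fold and 2.69-fold. Dhrs3, which turns retinal back into retinol, fell 1.85-fold. Cyp26b1, which degrades retinoic acid, rose from 37.6 and 37.4 CPM to 215 and 216 CPM. The retinol carrier of the blood, Rbp4, rose 7.86-fold, and the cellular carrier Crabp1, named by the rule, rose from 10.6 and 9.53 CPM to 23.4 and 28.5 CPM.

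Enzymes that build sugar chains fell more often than they rose, with 17 of 91 glycosyl and sulfotransferases at least 2-fold lower and 5 higher. B3gnt7, which extends keratan sulfate and related chains, fell from 19 and 19.1 CPM to 0.967 and 0.862 CPM, a change of -4.37 ± 0.23 (SE) on the log2 scale (adjusted p = 1.2e-16). Galnt16 and Galnt17, of the family that starts mucin-type sugar chains, fell 11.2-fold and 9.63-fold, Galnt17 from 236 and 239 CPM. Their libraries did not overlap. St8sia2, which adds polysialic acid, rose from 2.46 and 2.55 CPM to 39.2 and 37.5 CPM.

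Lipid and peptide enzymes changed singly. Enpp2, autotaxin, which makes lysophosphatidic acid, rose from 3.04 and 2.71 CPM to 41.4 and 41.6 CPM and was at 289 and 280.1 CPM in LC. Mgll, which releases glycerol from monoglycerides and ends endocannabinoid signals, fell 3.59-fold. Xpnpep2, a membrane aminopeptidase, rose 24.7-fold. Ctse, cathepsin E of immune cells and stomach, fell from 14.1 and 12.1 CPM to 1.17 and 1.06 CPM. Central metabolism had few large changes: 1 of 55 carbohydrate enzymes rose 2-fold and 1 fell that far, against 4.65% and 4.52% of all genes. The same counts held for 53 amino acid and one-carbon enzymes. At any size 26 of the carbohydrate enzymes were higher and 12 lower. For amino acid and one-carbon enzymes 18 were higher and 15 lower. Over all genes at the level 29.0% were higher and 28.2% lower. The carbohydrate gene that fell, Pgm5, codes for a phosphoglucomutase relative found at muscle adhesions, and went from 97.0 and 98.3 CPM to 14.2 and 12.1 CPM.

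Marker genes of other cell types moved beside these groups. Macrophage markers were abundant in all cultures: the list summed to 21905 and 22143 CPM in CiLC, 18728 and 19060.2 CPM in MEF, and 11684 and 11246 CPM in LC. Of 58 tested members 19 were higher and 27 lower in CiLC, against 26.1% and 25.5% of all genes tested. Of the defining markers Timd4 was at 0. Csf1r, the growth factor receptor of macrophages, was at 936 and 919 CPM against 1265 and 1315 CPM. Within the list, Cx3cr1 fell from 582 and 598 CPM to 82.2 and 79.4 CPM, whereas Lyz2, lysozyme, rose from 2632 and 2688 CPM to 7485 and 7657 CPM. Lyz2, whose counts were not whole, is part of the sums. Its rise alone was larger than the difference between the CiLC and MEF sums of the macrophage list. Irf8, a transcription factor of that lineage, fell from 116 and 110.2 CPM to 47.7 and 46.9 CPM. The part of macrophages in the changes of chemokine, complement, cytokine and receptor genes was not tested.

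**Figure D5:**
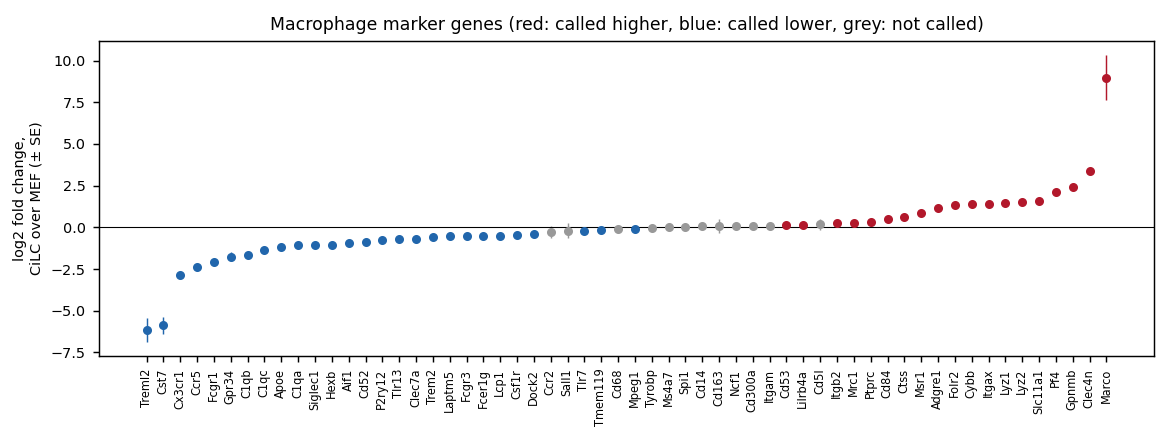
Points are fitted log2 fold changes of CiLC over MEF, with the SE as bars, for the tested macrophage marker genes in order. Of 58 genes, 19 are called higher (red) and 27 lower (blue), with Cx3cr1 towards the left end and Lyz2 towards the right.

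Of 13 tested markers of epithelium and mesothelium, the lining of body cavities, 10 were higher and 1 lower, against 26.1% and 25.5% of all genes tested. The list summed to 201 and 183 CPM in CiLC against 47.4 and 46.5 CPM in MEF. Msln, mesothelin, was at 37.6 and 37.2 CPM against 3.77 and 4.79 CPM, Upk3b at 36.6 and 32.1 CPM against 2.57 and 3.54 CPM, and the keratin Krt18 at 20.5 and 19 CPM against 0.891 and 0.885 CPM. Cdh1, the adhesion molecule of epithelia, was the member that fell, from 21.1 and 19.7 CPM to 2.19 and 1.72 CPM, and Cldn4 was at 0. In LC, Msln was at 2.44 and 1.53 CPM and Krt18 at 1.45 and 1.30 CPM. These genes moved beside Trp63, and their part in its rise was not tested.

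For the lists that follow, the shares over all genes tested were 26.1% higher and 25.5% lower. Smooth muscle and pericyte markers fell in 9 of 11 cases and rose in 1, with sums of 211 and 216 CPM in CiLC and 2036 and 1961 CPM in MEF. The gene that rose was Kcnj8, a potassium channel of pericytes. Neural and glial markers fell in 7 of 11 cases and rose in none, from sums of 159 and 157 CPM to 24.3 and 23.7 CPM. Only 2 of the 11, Map2 and Nes, reached 5 CPM, and they made up most of the MEF sums. Map2 was at 84.8 and 77.9 CPM in MEF. Nes was at 56.8 and 61.8 CPM in MEF and at 72.9 and 72.6 CPM in LC. The list moved beside the falls of Slc5a7, Slc4a10 and Slc1a6 and the rise of Slc12a5. Its part in these changes was not tested. Of 9 adipocyte markers 6 were tested, and all 6 were higher. Of the 5 at 5 CPM or more, 2 rose at least 2-fold, Lpl and Cd36. Cebpa rose 1.35-fold, Fabp4 1.39-fold and Pparg 1.80-fold. The list was led in level by Lpl, lipoprotein lipase, at 1775 and 1767 CPM against 199 and 179.6 CPM. Of 10 tested Sertoli cell markers 6 were higher and 1 lower, with Fshr and Gata1 at 0. Of the 5 Sertoli cell markers at 5 CPM or more, 4 were higher, 3 of them at least 2-fold, and none lower. The most abundant of these, Inhbb, an inhibin and activin subunit, was at 133 and 137 CPM against 8.28 and 9.89 CPM. Inha rose less, to 12.1 and 12.6 CPM from 10.9 and 9.68 CPM, and Wt1 is also in the epithelial and mesothelial list. Sox9, at 10.2 and 9.28 CPM against 8.13 and 8.54 CPM, was not called. Amh, at 0.305 and 0.304 CPM against 0.367 and 0.208 CPM, was not called either. The tested Sertoli cell marker that was lower was Aard. Fibroblast markers stayed abundant, at sums of 33768 and 33977 CPM against 33151 and 33781 CPM, with 8 of 14 higher and 5 lower.

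Promoter letters were searched in the changed genes because factors named above read known motifs. Promoters run from 250 bases before to 50 bases after the start of a gene, in the RefSeq annotation of GRCm38.p6, and were found for 9165 of the 11457 genes at the level. The letters CAAGGTCA, which NR5A1 binds, were searched on both strands. They stood in 3 of 395 promoters of genes at least 2-fold higher (0.759%), 8 of 365 of those lower (2.19%) and 1.2% of all. The cyclic AMP response element TGACGTCA, which reads the same on both strands, stood in 2.03% (8 promoters) and 1.92% (7 promoters) against 3.52% of all. The GLI letters GACCACCCA of hedgehog signalling stood in 0.253% of genes higher (1 promoter), in none of the 365 lower, and in 0.240% of all. The shares of changed genes thus rest on few promoters, and their differences were not tested. A match describes letters and not a bound site. The windows of 60 bases around the matches in genes named above, Hhip, Hlf (a leucine zipper factor that rose 5.76-fold), Gpr132 and Ltbp1, show them in capitals. The Hhip window is chr8:80058050-80058109 on the minus strand, Hlf chr11:90390918-90390977 on the minus strand, Gpr132 chr12:112861063-112861122 on the minus strand and Ltbp1 chr17:75005430-75005489 on the plus strand, each read 5′ to 3′ along the gene.
Hhip: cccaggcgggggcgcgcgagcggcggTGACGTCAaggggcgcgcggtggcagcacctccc
Hlf: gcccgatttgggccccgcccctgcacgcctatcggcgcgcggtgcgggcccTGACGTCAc
Gpr132: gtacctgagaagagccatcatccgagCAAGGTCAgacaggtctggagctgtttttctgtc
Ltbp1: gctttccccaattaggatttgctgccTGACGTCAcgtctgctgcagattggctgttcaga
Hhip, Hlf and Gpr132 rose and Ltbp1 fell, so the cyclic AMP letters stood in promoters of genes that moved in either direction.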

How the data were processed

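RNA sequencing libraries were grouped by their titles, 2 for each of 3 groups. The deposited values are expected counts (estimated reads per gene), which the authors made by aligning with HISAT to the mouse build mm9, per the submitters' processing notes. How reads were counted, with which annotation and strand setting, is not given in the sources used here. Of 18305 genes, 10860 had whole values in all libraries; other values share reads between genes, and reads of genes that overlap, antisense ones included, cannot be told apart. Names came from gene numbers through a RefSeq table of GRCm38.p6, for 18179 genes. A few genes are not reported here. Totals were 18.4 to 18.9 M reads per library, with 16441 to 16631 genes above 0. Library pairs differed by more than sampling noise (chi-square per degree of freedom 1.80 for CiLC, 2.81 for MEF and 2.98 for LC), so both libraries of a pair were kept.

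Counts were rounded and fitted in edgeR 4.0.16 (R 4.3.3) over all 6 libraries, with filterByExpr (minimum count 10, minimum total 15; 14581 genes kept, 3724 removed), trimmed-mean scaling and a prior count of 0.125. The two-sided quasi-likelihood test was adjusted by Benjamini-Hochberg over all genes tested. Classes were built from gene symbol patterns. The rule for named genes took, in each class, the 5 largest rises and falls among genes called with all libraries and without each CiLC or MEF library, at 5 CPM or more. In each family with 5 members or more it also took the largest rise and fall of at least 2-fold, passing over steroid, muscle and matrix genes and genes described earlier. Members, classes, lists and tests were chosen with earlier results of these data known. The procedure was tested on simulated data. Alternatives were DESeq2 1.42.0 and its size factors, no filter, CPM limits of 1 and 20, whole values only, a replicate block, only the 4 libraries, an assumed coefficient of variation of 0.4, and leaving out each library. Intervals and floors cover counting error only.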

Additional observations from a re-analysis of the deposited data

How the results depend on the processing

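The 3808 genes called higher and 3721 called lower, and the 533 and 518 at 5 CPM or more that were also at least 2-fold higher or lower, kept within 1.5 times under DESeq2, its size factors, no filter on low counts and a fit of only the 4 CiLC and MEF libraries. Leaving out a library gave 3030 to 3764 higher, 3097 to 3680 lower, 532 to 538 at least 2-fold higher and 513 to 528 at least 2-fold lower. With an assumed coefficient of variation of 0.4 the counts were 407 higher, 268 lower, 253 at least 2-fold higher and 181 at least 2-fold lower; the larger assumed spread is the construction of that setting. With only genes of whole values, fewer genes were tested, and 2304 were higher, 2239 lower and 353 at least 2-fold higher. With a limit of 20 CPM in place of 5, 315 were at least 2-fold higher and 325 lower, and with 1 CPM 793 were lower. The rule for named genes required a call without each CiLC or MEF library. All 117 kept their direction, and in the settings tried their calls changed only with the assumed spread, where 26 lost them, and in whole-value data, where 33 were not included.

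Replicate numbers are shared by the groups, but deviations of same-numbered CiLC and MEF libraries correlated at 0.0960, so the numbers were not shown to pair them. With the replicate number as a block, 3791 genes were higher and 3714 lower, with 533 and 518 at least 2-fold changed, and no named gene changed its call. Total depth limits genes near 0: for those with under 10 reads in a group, folds rest on few reads, and 2 libraries a group leave the spread between cultures unmeasured.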
